A study of Mus musculus with 10 samples.

Results

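Sphingosine-1-phosphate (S1P) is a lipid signal that is abundant in blood and lymph and scarce inside tissues. Sphingosine kinases (*Sphk1*, *Sphk2*) make it in the cell, the transporter SPNS2 releases it from endothelial cells, and G protein-coupled receptors (*S1pr1*, *S1pr2*, *S1pr3*) sense it at the cell surface. S1P lyase (*Sgpl1*) cleaves it irreversibly inside the cell, and the surface phosphatase PLPP3 removes the phosphate from S1P and from other lipid phosphates outside the cell. In vessels, S1PR1 restrains sprouting and tightens cell junctions, and S1P released by lymphatic endothelium guides lymphocytes out of tissues into lymph. These 8 genes were taken as listed and found by their Ensembl identifiers among the 46517 mouse genes of the deposited count tables. Their levels are described here in ear skin, in endothelial cells of lymphatic vessels (LECs) and of blood vessels (BECs), in mice with and without oncogenic *Pik3ca*.

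Cells of 7 mice aged 5 weeks were analysed, each sorted from ear skin by Podoplanin and CD31 after blood, immune and dead cells had been gated out, and sequenced singly by Smart-Seq2 in 384-well plates. The 5 mutant mice were Cre+ Pik3caH1047R;Cdh5-CreERT2 mice that received topical 4-OHT on the ears at 3 weeks of age. In them a Cdh5 promoter drives an inducible Cre in endothelium of every vessel type, so LECs and BECs of the same mouse both could carry the active transgene, which encodes a chicken PIK3CA and has no entry in the tables. Control 1 was a C57BL/6J mouse that had no treatment, and control 2 was a Cre- Pik3caH1047R;Cdh5-CreERT2 littermate given 4-OHT, so genotype, breeding and treatment differ between the controls. Of 3456 wells, 3248 held a cell that passed the limits of 200 genes or more, 50000 reads or more, and no more than 10% of reads from mitochondria. A cell was called a LEC when its summed level of *Prox1*, *Flt4* and *Mmrn1* reached 300 CPM (reads of a gene for each 1000000 reads of the cell or sum) and exceeded that of *Flt1*, *Emcn* and *Podxl*, and a BEC in the reverse case. This gave 1641 LECs and 1490 BECs, while 117 cells met neither rule, although the labels name LECs only. The median depth per mouse and cell type was 187907 to 488024 reads and 4645 to 7439 genes a cell, and no cell name was shared between plates.

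The LEC markers *Prox1*, *Flt4*, *Mmrn1*, *Pdpn* and *Lyve1* summed to between 5793 and 8911 CPM in LECs and to between 120.5 and 380.1 CPM in BECs. The BEC markers *Flt1*, *Emcn*, *Podxl*, *Cd34* and *Ly6c1* summed to between 4169 and 5161 CPM in BECs and to between 739 and 1143 CPM in LECs, and 1048 LECs and 153 BECs reached 300 CPM of both sums that defined the cell types. Markers of other cells moved with genotype. The 4 fibroblast markers summed to 380 to 492 CPM in control BECs against 11.3 to 33.5 in mutant BECs, and the 4 mural markers to 294 to 640 against 33.8 to 200, with none of the 8 markers at 0 in any BEC sum. The 5 venous markers summed to 986 to 1463 CPM in control BECs and 2282 to 3198 in mutant BECs, and the 7 cycling genes to 53.1 to 72.1 in control LECs and 375 to 712 in mutant LECs. The part of these shifts in the results below was not tested, except where a value without those cells is given. Mutants 1 to 4 came from plates numbered 323 to 332, and mutant 5 and both controls from plates numbered 891 to 901, so that for mutants 1 to 4 the run of plate numbers and the genotype cannot be told apart.

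Per kilobase of gene length, *S1pr1* had the highest mean of the 8 genes in LECs of both genotypes and in BECs of controls, and *Plpp3* in BECs of mutants. *S1pr1* averaged 275 CPM per kb in LECs of controls and 191 in LECs of mutants, against 324 and 198 in BECs. In BECs *Plpp3* averaged 232 CPM per kb in controls, second to *S1pr1*, and 222 in mutants, above *S1pr1*. The mutant ranges of these 2 genes overlapped (169 to 263 for *Plpp3* and 148 to 314 for *S1pr1*). *Spns2* was at 27.6 and 37.9 in BECs. In LECs *Plpp3* was at 78.9 in controls and 48.6 in mutants and *Spns2* at 55.1 and 60.2, so *Plpp3* was second in controls and *Spns2* in mutants, where the ranges of these 2 genes overlapped (29.7 to 57.2 and 42.5 to 81.1 CPM per kb). *Sphk2* averaged 14.4 and 12.4 CPM per kb in LECs and *Sphk1* 11.4 and 9.83, again with overlapping ranges, whereas in BECs *Sphk2* was at 27.8 and 16.4, with a range that overlapped that of *Spns2* in controls, and *Sphk1* at 2.36 and 1.53. *Sgpl1* stood at 5.20 to 6.07 CPM per kb in every mean. *S1pr2* averaged 2.22 to 5.03, and *S1pr3* was the lowest gene in LECs at 0.161 and 0.146. The deposited length of *S1pr2* is 2815 bases, while its exons in GENCODE vM21 cover 7971. With the latter, an alternative chosen after seeing the data, *S1pr2* averaged 0.784 to 1.78 CPM per kb, and in control BECs its 1.07 lay below the 2.28 of *S1pr3*.

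*S1pr1* (chr3:115710433-115715072 on GRCm38), the main S1P receptor of endothelium, had levels in BECs of 982 and 992 CPM in controls 1 and 2 and of 481, 451, 574, 545 and 958 CPM in mutants 1 to 5. All 5 mutants lay below both controls, 4 of them far below and mutant 5 just under. In LECs the controls had 726 and 951 CPM and the mutants 505, 439, 642, 576 and 740.4 CPM, so 4 of 5 mutants lay below both controls and mutant 5 lay between them. A quasi-likelihood test in edgeR on reads summed per mouse gave *S1pr1* a log2 fold change of -0.66 (SE 0.26) in BECs of mutants against controls, with a Benjamini-Hochberg adjusted p of 0.21. In LECs the log2 fold change was -0.48 (SE 0.20, 95% interval -0.94 to -0.02), with an adjusted p of 0.23. Neither difference passed the threshold of 0.05.

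The levels of *S1pr1* differed between the runs of plate numbers as well. Without mutant 5, the log2 fold change of *S1pr1* in BECs was -0.89 and passed at an adjusted p of 0.019, while mutant 5 against the 2 controls, all from plates 891 to 901, gave -0.01. The same comparison in LECs gave -0.12. With the run of plate numbers as a block, the values were -0.02 in BECs and -0.14 in LECs. Plates 323 to 332 hold mutants alone, so this block also sets mutant 5 by itself against the 2 controls, and the other mutants enter through the spread alone. Over all alternatives for BECs the adjusted p ran from 0.019 to 0.999. Mutant 5 itself was sorted into 2 plates, at 905 and 589 CPM of *S1pr1* in LECs and 1169 and 714 in BECs. The difference between these plates of a single mouse exceeded that between the means of mutants and controls, in LECs and in BECs.

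*Plpp3* (chr4:105157347-105232764), the phosphatase that degrades extracellular S1P, had LEC levels without overlap between the 2 genotypes. In LECs it had 255 and 243 CPM in the controls and 176, 145, 181, 173 and 93.9 CPM in mutants 1 to 5. Every mutant lay below both controls, with mutant 5 lowest. In BECs the controls had 607 and 857 CPM and the mutants 769, 651, 725, 831 and 535 CPM, and the groups overlapped. The log2 fold change of *Plpp3* in LECs was -0.65 (SE 0.24, 95% interval -1.21 to -0.10), with an adjusted p of 0.18 in edgeR, and in BECs 0.00 (SE 0.20, 95% interval -0.45 to 0.46), with an adjusted p of 0.995. The difference between the effects, tested as an interaction with mouse as a block, was -0.72 (SE 0.20), with an unadjusted p of 0.0070 and an adjusted p of 0.22. It passed at 0.046 in DESeq2 and ran from 0.046 to 0.53 over all alternatives. Within plates 891 to 901 the LEC difference of *Plpp3* was larger, at -1.36 (adjusted p = 0.49), and with the run of plate numbers as a block it was -1.37 with an adjusted p of 0.043. Both values rest on mutant 5, the mutant with the lowest *Plpp3* in LECs, against the 2 controls, and the lone mouse is assumed to vary like the others. The 2 plates of mutant 5 had 100.0 and 88.4 CPM in LECs.

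*Spns2* (chr11:72451638-72489904), the transporter that releases S1P, showed the converse pattern. In BECs it had 102 and 124 CPM in the controls and 154, 127, 169, 147 and 175 CPM in mutants 1 to 5, so every mutant lay above both controls, mutant 2 by the least. In LECs the controls had 242 and 208 CPM and the mutants 331, 271, 276, 174 and 177 CPM, with 3 mutants above both controls and 2 below. The log2 fold change of *Spns2* was 0.51 (SE 0.17, 95% interval 0.13 to 0.90) in BECs, with an adjusted p of 0.16 in edgeR, and 0.17 (SE 0.27, 95% interval -0.44 to 0.77) in LECs, with an adjusted p of 0.77. Over the alternatives the BEC value stayed between 0.39 and 0.67, with adjusted p-values from 0.050 in DESeq2, which missed the threshold, to 0.87. The interaction for *Spns2* was -0.41 (SE 0.33, adjusted p = 0.74).

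The intracellular enzymes overlapped between genotypes. *Sphk1* (chr11:116530925-116536674), the mainly cytoplasmic kinase, had 69.3 and 39.4 CPM in control LECs and 29.9, 36.3, 32.8, 56.8 and 78.8 CPM in mutant LECs, with mutant 5 above both controls and 3 mutants below. In BECs it had 16.1 and 6.44 CPM in controls and 17.9, 3.67, 5.92, 3.20 and 5.84 CPM in mutants, where a single cell held 32.6 to 59.0% of the reads of each mouse. *Sphk2* (chr7:45709467-45718002), the kinase found in nucleus and mitochondria, had 77.1 and 43.0 CPM in control LECs and 70.7, 51.0, 52.1, 40.6 and 42.8 CPM in mutant LECs. In BECs *Sphk2* had 168 and 63.3 CPM in controls and 119.8, 80.3, 42.1, 50.8 and 48.8 CPM in mutants, so the 2 controls differed by more than most mutants did. *Sgpl1* (chr10:61098642-61147703), S1P lyase, lay between 20.7 and 51.8 CPM in all LEC sums and between 22.2 and 42.6 CPM in all BEC sums, and its log2 fold change was 0.03 (SE 0.37) in LECs and 0.07 (SE 0.30) in BECs. For *Sphk1* the values were -0.18 (SE 0.42) and -0.57 (SE 0.73), and for *Sphk2* -0.19 (SE 0.30) and -0.70 (SE 0.48). The smallest adjusted p of these 3 genes was 0.45 in edgeR. The 95% interval of *Sgpl1* in LECs ran from -0.81 to 0.86, so the data do not show that its level was equal.

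Reads of *Sphk2* need care, because its exons share 539 bases (12.96% of its length) with *Dbp* and 373 bases (8.97%) with *Rpl18*, both on the opposite strand, and the libraries do not mark strand. Reads from these stretches cannot be told apart from those of *Sphk2*. The part of such reads in the *Sphk2* counts was not tested. *Dbp*, a clock output gene, had 172 and 44.3 CPM in control LECs and 424 and 47.0 CPM in control BECs, where control 1 was high, as it was for *Sphk2*. The mutants had 88.0, 59.3, 40.8, 21.2 and 23.8 CPM of *Dbp* in LECs and 141, 93.8, 41.2, 34.0 and 32.8 CPM in BECs, with mutant 1 highest in both. Without control 1 the log2 fold change of *Sphk2* in BECs turned from -0.70 to 0.18. *Sphk1* shares 192 bases (4.02%) with an antisense gene and *Spns2* 131 bases (3.21%) with *Mybbp1a*, while *S1pr1*, *S1pr2*, *Sgpl1* and *Plpp3* share none.

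The minor receptors were found in few cells. *S1pr2* (chr9:20962361-20976781) had 4.10 and 8.39 CPM in control LECs and 10.3, 6.37, 16.3, 2.33 and 6.79 CPM in mutant LECs. In BECs *S1pr2* had 6.48 and 10.6 CPM in controls and 21.8, 8.29, 8.11, 20.7 and 11.9 CPM in mutants, and the groups overlapped in both cell types. *S1pr3* (chr13:51408639-51422797), known from smooth muscle as well as endothelium, had 16.9 and 3.56 CPM in control BECs and 22.3, 0, 0.0953, 4.32 and 1.24 CPM in mutant BECs. In 5 of the 6 mice with any read, a single cell held 68.9 to 97.3% of the *S1pr3* reads of the BECs. In LECs *S1pr3* ranged from 0.0360 to 2.71 CPM, with mutant 5 highest. The log2 fold changes of mutant against control were 0.49 (SE 0.70) and 0.79 (SE 0.53) for *S1pr2* and -0.07 (SE 1.65) and -0.83 (SE 1.89) for *S1pr3*, in LECs and BECs, so for *S1pr3* the interval in BECs ran from -5.15 to 3.50 and no difference was detectable at this depth. Among the 117 cells that were neither LECs nor BECs, *S1pr3* was at 50.7 CPM in controls and 99.1 in mutants, above the 22.3 CPM of the highest endothelial sum.

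**Figure D1:**
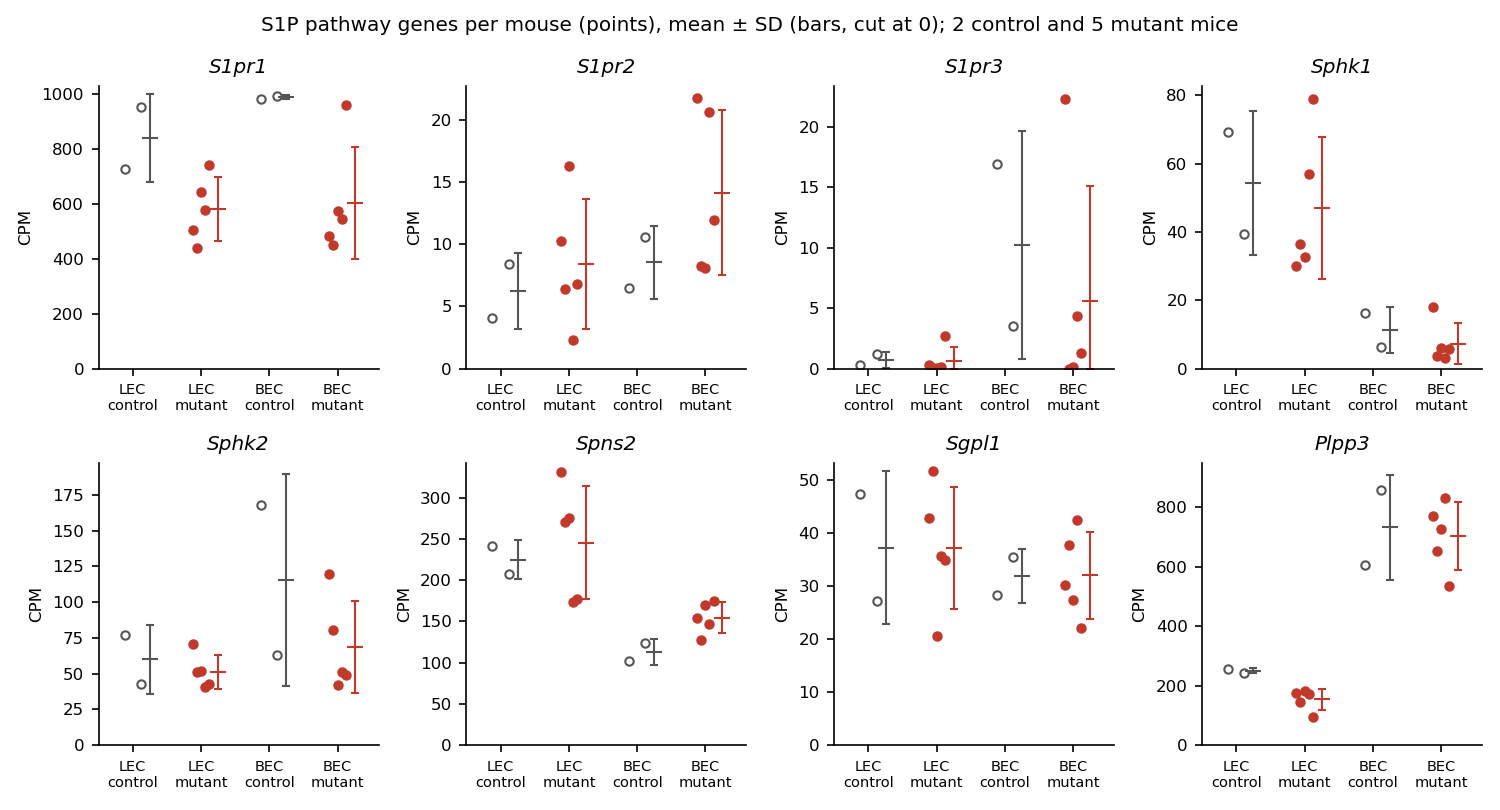
CPM of each of the 8 genes (vertical axes, from 0, scaled per gene) in LECs and BECs of 2 control mice (open grey points) and 5 mutant mice (filled red points), with bars for the mean ± SD. Mutants lie wholly below controls for *Plpp3* in LECs (93.9 to 181 against 243 and 255 CPM) and *S1pr1* in BECs, wholly above for *Spns2* in BECs, and overlap the controls for the other genes and cell types. The share of all genes without such overlap was not counted.

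Across all genes, 546 of 19753 tested genes (2.76%) passed in LECs of mutants against controls, and 410 of 19313 (2.12%) in BECs. None of the 8 genes passed in either, with 2 of 8 at an unadjusted p under 0.05 in each and none passing in DESeq2. Over all tested genes, 3963 of 19753 in LECs and 3792 of 19313 in BECs were at an unadjusted p under 0.05. The 2 of 8 lie near that share. The median log2 fold change of the 8 genes was -0.12 in LECs and -0.28 in BECs, beside -0.01 and 0.01 over all tested genes. For the difference of the effects, 42 of 21911 genes passed (0.192%), and none of the 8 in edgeR, with *Plpp3* alone under 0.05 unadjusted and passing in DESeq2. Over all genes, 2526 of 21911 were under 0.05 unadjusted there in edgeR. In sums of cells, fewer cells that express a gene and less RNA per cell cannot be told apart. The mice were separate animals, and their plates were added per mouse. How many of all genes show no overlap between the genotypes was not counted. Lack of overlap can therefore not be called particular to any gene named here.

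LECs and BECs were compared within mice, with mouse as a block. Of all genes, 4204 of 21911 (19.2%) differed between LECs and BECs of mutants, and 2277 (10.4%) in controls. Of the 8 genes, *Plpp3*, *Sphk1* and *Spns2* passed in mutants and *Plpp3* in controls. *Plpp3* was lower in LECs in 7 of 7 mice, with LEC levels at 0.284 and 0.421 of the BEC level in the controls and at 0.176 to 0.249 in the mutants. Its log2 fold change of LECs against BECs was -2.22 (SE 0.11, adjusted p = 1.7e-05 in edgeR) in mutants and -1.50 (SE 0.17, adjusted p = 0.0015) in controls, and it passed under every alternative, with adjusted p up to 0.00022 and 0.020.

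The kinase and the transporter went the other way. *Sphk1* was higher in LECs in 7 of 7 mice, by 4.30 and 6.12 times in the controls and by 1.67 to 17.8 times in the mutants. Its log2 fold change was 2.92 (SE 0.51, adjusted p = 0.0051 in edgeR) in mutants, passing under all 15 alternatives, and 2.39 (SE 0.74, adjusted p = 0.088) in controls, where 6 of 15 alternatives passed and the adjusted p ran from 0.0029 to 0.33. Leaving out mutant 1 brought the control value to 0.017, since all mice share an estimate of the spread. *Spns2* was also higher in LECs in 7 of 7 mice, by 1.68 and 2.38 times in controls and 1.01 to 2.15 times in mutants. Its log2 fold change was 0.62 (SE 0.18, adjusted p = 0.044) in mutants and 1.03 (SE 0.28, adjusted p = 0.057) in controls.

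The *Spns2* call was the least firm. It was lost on leaving out control 1, control 2 or mutants 1, 2, 3 or 4 (adjusted p 0.058, 0.054, 0.13, 0.15, 0.13 and 0.054), with DESeq2 size factors in edgeR (0.057) and at a marker limit of 1000 CPM (0.079), and in controls it was gained without mutant 5 (0.044). Without the cells that reached 300 CPM of both marker sums, the *Spns2* difference fell to 0.18 in mutants (adjusted p = 0.46) and 0.38 in controls (adjusted p = 0.38). *S1pr1* was nearly equal in both cell types, at -0.03 in mutants with a 95% interval of -0.23 to 0.17, and at -0.22 in controls with an interval of -0.54 to 0.10. *Sphk2* was lower in LECs in 6 of 7 mice, at -0.33 (SE 0.18, adjusted p = 0.25) in mutants and -0.81 (SE 0.28, adjusted p = 0.12) in controls. *Sgpl1*, *S1pr2* and *S1pr3* did not pass in either genotype, and their adjusted p-values were 0.35 to 0.83.

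**Figure D2:**
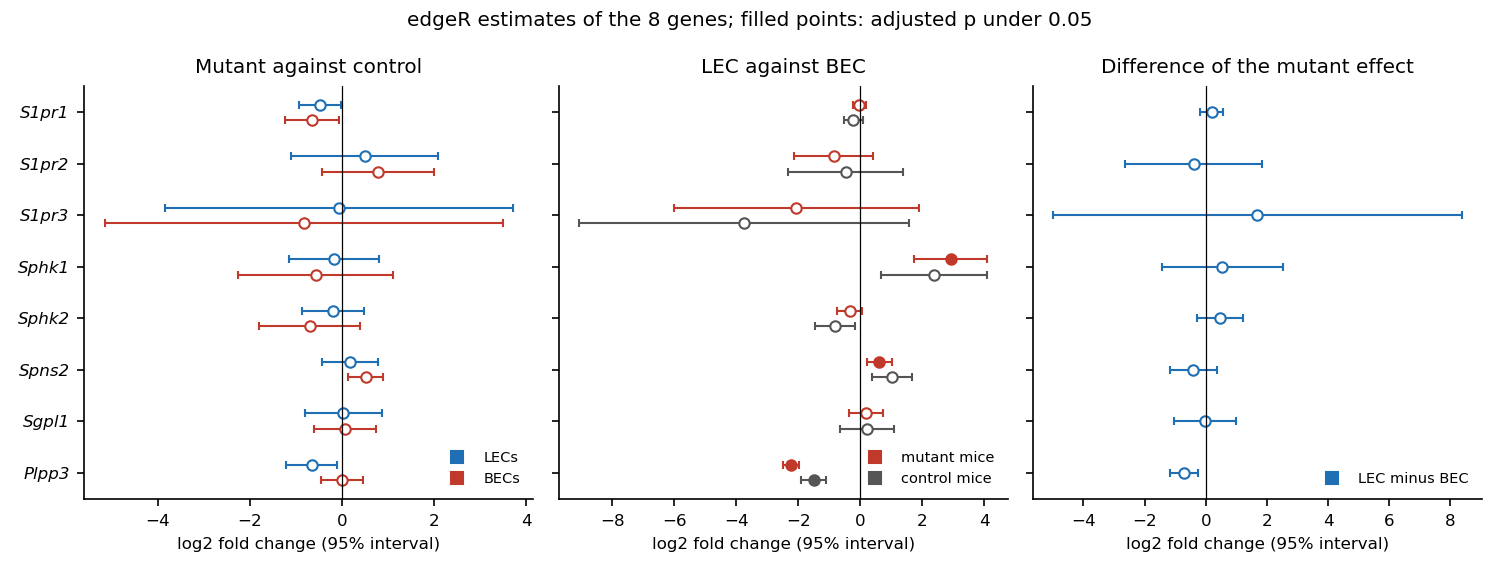
Log2 fold changes of the 8 genes from edgeR with 95% intervals (horizontal axes) for mutant against control mice in LECs and BECs (left), LECs against BECs in mutant and control mice (middle) and the difference of the mutant effect (right). Filled points passed at an adjusted p under 0.05, which held for *Plpp3* in both genotypes and for *Sphk1* and *Spns2* in mutants in the middle panel and for no gene in the others.

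The stretches of DNA before the starts of *Plpp3* and *Spns2* are shown because these genes passed both between LECs and BECs of mutants and between arterial-like and venous-like BECs. They are the 250 bases before the RefSeq start on GRCm38.p6, written along the gene, with capitals for CACCC or its reverse complement GGGTG, the core of sites bound by KLF factors. The window of *Plpp3* is chr4:105157097-105157346 on the + strand and holds GGGTG once, 144 bases before the start. The window of *Spns2* is chr11:72475028-72475277 on the - strand and holds neither. Its start lies inside the *Spns2* interval given above, so other starts of the gene are not covered.
Plpp3: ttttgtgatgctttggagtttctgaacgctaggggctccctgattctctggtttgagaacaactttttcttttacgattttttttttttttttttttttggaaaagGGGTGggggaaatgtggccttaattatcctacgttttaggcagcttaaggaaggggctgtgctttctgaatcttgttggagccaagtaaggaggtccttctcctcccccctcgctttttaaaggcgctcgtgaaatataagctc
Spns2: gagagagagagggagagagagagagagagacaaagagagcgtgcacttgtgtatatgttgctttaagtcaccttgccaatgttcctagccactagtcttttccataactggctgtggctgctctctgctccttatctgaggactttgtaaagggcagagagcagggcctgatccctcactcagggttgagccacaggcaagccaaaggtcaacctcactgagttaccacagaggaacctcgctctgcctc
On both strands, CACCC occurred in 52.0% of 32851 promoters of the same length, and GTAAACA, the core of FOXO sites, in 3.17%. Among the 12 RefSeq windows of 7 of these genes, CACCC was found for *Plpp3*, *Sphk1*, *Sphk2*, *S1pr2* and *S1pr3*, and GTAAACA for none.

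Vessel classes were then compared within each cell type, with cells assigned by their score on markers of arterial, venous and capillary BECs or of capillary, collecting and valve LECs. These classes are ranges of a score, not types: a cell joined the list it led by 0.3, and 266 mutant and 58 control LECs and 130 mutant and 58 control BECs lay within 0.1 of that limit. Among BECs, 706 of 14827 genes (4.76%) differed between the arterial-like and venous-like classes, and 3 of the 8 genes passed. *Spns2* had 215 and 215 CPM in venous-like BECs of the controls and 194, 170.3, 226, 186 and 223 CPM in those of the mutants. In arterial-like BECs it had 74.6 and 112 CPM in controls and 128, 44.3, 109.9, 110.4 and 81.4 CPM in mutants. The venous-like level was higher in 7 of 7 mice with no overlap between the classes, and *Spns2* differed by -1.19 (SE 0.18, adjusted p = 0.00053 in edgeR) in arterial-like against venous-like cells, passing under all 14 alternatives with adjusted p up to 0.0037.

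In venous-like BECs *Plpp3* had 629.9 and 639.8 CPM in controls and 831, 675, 879, 890.0 and 717 CPM in mutants, and in arterial-like BECs 514 and 581 CPM and 359.7, 183, 398, 507 and 308 CPM. The venous-like level was again higher in 7 of 7 mice, and the mutants lay wholly above the controls in venous-like and wholly below them in arterial-like cells. The difference of *Plpp3* between arterial-like and venous-like cells was -0.92 (SE 0.20, adjusted p = 0.012 in edgeR), lost only at a score margin of 0.6 (adjusted p = 0.059) among 14 alternatives. That fit took both genotypes together, and the difference was small in controls. The arterial-like level was 0.816 and 0.908 of the venous-like level in controls and 0.271 to 0.569 of it in mutants. *Plpp3* was also lower in arterial-like than in capillary-like BECs, at -1.19 (SE 0.21, adjusted p = 0.0020, at most 0.013 over 14 alternatives), and was the one of the 8 genes that passed there, where 648 of 14827 genes did (4.37%).

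*S1pr1* had 953 and 1169.5 CPM in arterial-like BECs of controls and 791, 622, 559, 915 and 1307 CPM in those of mutants, against 753 and 1049 CPM and 337, 375, 426, 397 and 843 CPM in venous-like BECs. The arterial-like level was higher in 7 of 7 mice, although the ranges overlapped. The difference was 0.65 (SE 0.17, adjusted p = 0.040 in edgeR) and less firm, since it was lost without control 1 (0.067) or mutants 1, 2, 4 or 5 (0.15, 0.12, 0.15 and 0.086), at score margins of 0 and 0.6 (0.057 and 0.059) and without mouse as a block (0.27), and the adjusted p of *S1pr1* ran from 0.0074 to 0.27 over the alternatives. In capillary-like BECs *S1pr1* had 1215 and 886 CPM in controls and 689, 651, 961, 822 and 990.5 CPM in mutants, near the arterial-like level (log2 difference -0.12, 95% interval -0.49 to 0.25). *S1pr3* had 43.8 and 0.254 CPM in arterial-like BECs of controls and 26.3, 0, 0.155, 29.3 and 0.0569 CPM in those of mutants, which differ between mice of 1 group by more than 100 times, and its difference from venous-like cells (4.85, SE 2.02) did not pass in edgeR (adjusted p = 0.26) but did in DESeq2.

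Mutant mice gave 64 to 151 venous-like BECs each and the controls 22 and 17. Within venous-like BECs the *Spns2* levels of the genotypes overlapped, as they did within arterial-like cells and in capillary-like cells, where controls had 80.4 and 103 CPM and mutants 149, 63.6, 119, 98.8 and 141 CPM. The part of the class make-up in the higher *Spns2* of all mutant BECs was not tested. The lower *S1pr1* was seen in 4 of 5 mutants within venous-like and within arterial-like BECs and in 3 of 5 within capillary-like BECs. These differences within classes are given as values and were not tested.

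**Figure D3:**
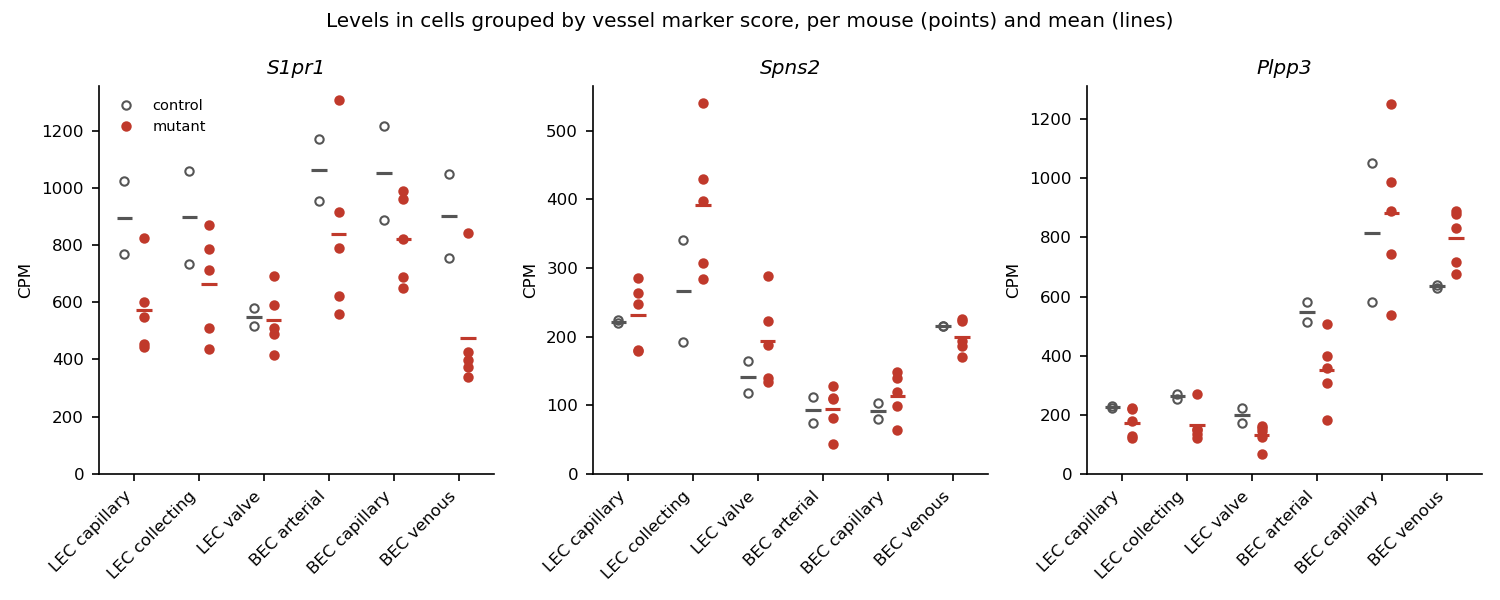
CPM of *S1pr1*, *Spns2* and *Plpp3* (vertical axes, from 0) in cells grouped by vessel marker score (horizontal axis), with a point per mouse (open grey for 2 controls, filled red for 5 mutants) and lines for the means. *Spns2* is at 170.3 to 226 CPM in all venous-like BEC points and at 44.3 to 128 CPM in all arterial-like points. *Plpp3* reaches at most 271 CPM in any LEC class and is at 183 CPM or more in every BEC class.

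Among LECs, 186 of 14483 genes (1.28%) passed between the collecting-like and capillary-like classes and 235 (1.62%) between the valve-like and capillary-like classes, and none of the 7 members tested passed in either by edgeR, with 2 and 3 at an unadjusted p under 0.05. Over all genes, 1335 and 1503 of 14483 were at an unadjusted p under 0.05. Of the 7 members, *Spns2* came closest to passing. It had 340.3 and 193 CPM in collecting-like LECs of controls and 541, 398, 430.5, 285 and 308 CPM in those of mutants, against 220.1 and 224 CPM and 263, 180.2, 285, 179.7 and 248 CPM in capillary-like LECs. It was higher in collecting-like cells of 6 of 7 mice, control 2 excepted, and its difference of 0.60 (SE 0.15) had an adjusted p of 0.067. *Spns2* passed without control 2 (0.73, adjusted p = 0.019), at a score margin of 0.6 and in DESeq2, and the adjusted p ran from 0.0094 to 0.24. In valve-like LECs *Spns2* had 164 and 118 CPM in controls and 288, 222, 187, 133 and 139.6 CPM in mutants, with a difference from capillary-like cells of -0.44 (SE 0.15, adjusted p = 0.23). *S1pr1* and *Plpp3* were at -0.27 (SE 0.11, adjusted p = 0.37) and -0.40 (SE 0.18, adjusted p = 0.47) in valve-like cells. *S1pr2* passed between collecting-like and capillary-like cells in DESeq2 alone, from levels of 0 to 46.8 CPM in collecting-like cells of single mice. Part of the collecting markers came from the list the study had drawn on these cells, so these classes are not independent of it.

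*Plpp3* in capillary-like LECs was at 231 and 222 CPM in controls and 221, 178, 218, 121 and 127 CPM in mutants. In valve-like LECs *Plpp3* was at 224 and 174 CPM and 163, 125, 146, 155 and 68.6 CPM. Every mutant lay below both controls in each of these classes. The valve-like sums hold only 10 and 14 cells in controls and 58, 27, 75, 44 and 131 in mutants 1 to 5. In mutants 1 and 5 they outnumber the capillary-like cells (29 and 76). In collecting-like LECs the controls had 253 and 271 CPM and the mutants 149, 135, 151, 271 and 122 CPM, with mutant 4 between the controls. Without cycling cells the log2 fold change of *Plpp3* in all LECs was -0.59 (adjusted p = 0.31), beside -0.65 with them. The 4 fibroblast markers summed to 114 and 276 CPM in control LECs and to between 13.3 and 78.3 CPM in mutant LECs, none of them at 0. The 5 markers of capillary BECs summed to 1036 and 689 CPM in control LECs and to between 241 and 359 CPM in mutant LECs, also with none at 0. The part of either shift in the lower *Plpp3* was not tested. Without the LECs that reached 300 CPM of both marker sums, its log2 fold change was -0.93 (adjusted p = 0.093).

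The study set apart LECs that express *Ptx3*, a pattern recognition molecule, so the LECs of mutant mice were split by whether *Ptx3* kept over 1 read once each cell was thinned to 50000 reads, and both sets were compared within mice. Of 15757 genes, 983 passed (6.24%), and of the 7 members tested *Spns2* did. *Spns2* had 204, 189, 198, 131 and 163 CPM in *Ptx3*-positive and 424, 320.2, 334, 216 and 194 CPM in *Ptx3*-negative LECs of mutants 1 to 5. It was lower in the positive cells of 5 of 5 mutants, least so in mutant 5, and of both controls (187 and 133 against 247 and 241 CPM). Its log2 difference in mutants was -0.71 (SE 0.11, adjusted p = 0.013 in edgeR), and the call was lost without mutant 2, 3 or 4 (0.056, 0.056 and 0.057) and in the fit without mouse as a block (0.082), while the difference stayed between -0.83 and -0.62 over 12 alternatives.

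*S1pr1* was also lower in *Ptx3*-positive cells of 5 of 5 mutants, at 432, 428, 589, 552 and 696 CPM against 559, 445, 682, 601 and 794 CPM, but did not pass (-0.19, SE 0.06, adjusted p = 0.11, from 0.056 to 0.65 over the alternatives). *Plpp3* differed by 0.00 with a 95% interval of -0.36 to 0.36. Against controls, *Plpp3* was lower in mutants within *Ptx3*-positive LECs (229 and 257 CPM against 225, 151, 167, 157 and 84.5 CPM) and within *Ptx3*-negative LECs (258 and 238 against 140.2, 140.4, 191, 188 and 105 CPM), without overlap in either. The *Ptx3*-positive sum of control 1 holds 13 cells and that of control 2 holds 50, and the gap to the highest mutant there is from 229 to 225 CPM. *Ptx3*-negative LECs alone gave it a log2 fold change of -0.66 (adjusted p = 0.30) and *Ptx3*-positive LECs alone -0.67 (adjusted p = 0.23), and over all alternatives the adjusted p of *Plpp3* in LECs ran from 0.043 to 0.49.

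After each cell had been thinned to 50000 reads, the share of cells with at least 1 read ordered the genes much as their levels did. *S1pr1* was found in 93.1 to 100% of cells of every mouse, *Plpp3* in 51.0 to 72.1% of LECs and 80.9 to 94.0% of BECs, and *Spns2* in 57.7 to 86.4% of LECs and 36.3 to 65.0% of BECs. *Sphk1* was found in 14.1 to 33.8% of LECs and 2.30 to 14.5% of BECs, and *S1pr2* and *S1pr3* in at most 10.4% and 5.66% of cells of any mouse. No BEC of mutant 2 had an *S1pr3* read, 0 of 184 cells, which allows a share of up to 1.63% by counting error only. *Spns2* was found in 73.9% ± 8.16 (SD, n = 5) of mutant LECs against 60.3% ± 3.63 (SD, n = 2) of control LECs, with every mutant above both controls, although its summed level overlapped. The exact permutation test over mice, two-sided, gave p = 0.0952, the smallest that 5 against 2 mice allow, and 0.571 after adjustment over 16 values. *Plpp3* was found in 59.0% ± 7.92 (SD, n = 5) of mutant LECs and in 69.8% ± 3.33 (SD, n = 2) of control LECs (exact permutation p = 0.190, adjusted 0.571). No share could pass the threshold in this design. Without thinning, *Spns2* was found in 87.8% of mutant and 87.0% of control LECs and *Plpp3* in 88.0% and 94.3%.

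Genes around the pathway were taken from 6 lists of 60 genes in all, covering the other S1P receptors, export and carriage, lipid phosphatases, ceramide synthesis, ceramide conversion and G protein signalling. In LECs 1 of 57 tested genes was higher and 2 were lower in mutants, and in BECs 0 were higher and 1 of 58 lower, in edgeR. *Plpp2*, a phosphatase of the *Plpp3* family, had 20.9 and 27.3 CPM in control LECs and 89.8, 63.5, 63.4, 70.0 and 104 CPM in mutant LECs, all above the controls. It rose by 1.75 on the log2 scale (SE 0.26, adjusted p = 0.018), a call lost without control 1 (0.071), and it passed in 17 of 23 alternatives, with adjusted p up to 0.29. In BECs *Plpp2* had 24.4 and 43.6 CPM in controls and 70.3, 78.9, 65.2, 62.1 and 108 CPM in mutants (1.24, SE 0.31, adjusted p = 0.081). In LECs *Plpp2* and *Plpp3* thus stood on opposite sides of the controls.

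*S1pr4*, a receptor best known from lymphoid cells, had 169 and 114 CPM in control BECs and 44.7, 52.9, 71.0, 51.5 and 43.9 CPM in mutant BECs, all below the controls. It fell by 1.36 on the log2 scale (SE 0.24, adjusted p = 0.032 in edgeR), a call lost without control 1 or 2 (0.11 and 0.051) or mutant 1, 2 or 4 (0.073, 0.075 and 0.064), and held in 9 of 21 alternatives with adjusted p up to 0.87. In LECs *S1pr4* did not pass (0.39, SE 0.40). *S1pr5*, a receptor known from natural killer cells and brain, had 5.72 and 2.34 CPM in control LECs, from 463 reads, and no read in LECs of any mutant. A floor of 3 reads over the mutant group covers counting error only, not the spread between cells or mice. By that floor *S1pr5* was at least 650.1-fold lower in reads of mutants (at least 384-fold without control 1). Its adjusted p was 0.030 in edgeR, a call lost without control 1 or 2 or mutant 3 or 4 (0.081, 0.057, 0.058 and 0.054), and held in 14 of 23 alternatives with adjusted p up to 0.38. *Arhgef11*, a guanine nucleotide exchange factor, had 39.4 and 28.7 CPM in control LECs and 15.4, 14.8, 13.3, 17.1 and 12.05 CPM in mutant LECs, and fell by 1.19 (SE 0.25) with an adjusted p of 0.0496, lost on leaving out any of the 7 mice (0.052 to 0.18) and held in 4 of 23 alternatives, with adjusted p up to 0.71. *Arhgef11* shares 991 bases (12.5%) with *Lrrc71* on the opposite strand.

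None of the 16 genes tested for ceramide synthesis and 15 for ceramide conversion passed between genotypes in either cell type, and their median log2 fold changes were -0.09 and 0.04 in LECs and 0.12 and 0.20 in BECs, beside -0.01 and 0.01 over all genes. The lists of other receptors and of export and carriage hold 2 genes each, the phosphatases 4 and the signalling genes 20, with medians of -5.53, 1.97, 0.12 and 0.02 in LECs and -3.29, 1.17, -0.16 and 0.11 in BECs. In LECs the first median rests on *S1pr5*, which has no read in the mutants, and the fitted change of such a gene is no bound. For export and carriage the LEC value is that of 1 tested gene, and the BEC median lies between -1.01 and 3.35. Both genes of that list had at most 6.65 CPM in any sum. Over all 6 lists, 8 of 59 tested genes were higher and 3 lower in LECs than in BECs of mutants (19.2% of all genes passed) and 5 and 3 in controls (10.4%). In *Ptx3*-positive against negative LECs 0 were higher and 3 lower of 51 (6.24% of all genes), and for the difference of the effects 0 passed in either direction. These counts lie near the shares over all genes. Among these, chosen to be named after their values were seen, *Acer2*, *Degs1* and *Ugcg* were lower in *Ptx3*-positive LECs (-1.72, -0.56 and -0.84). For the vessel classes, *Degs1*, the desaturase that completes ceramide, was higher in collecting-like LECs (0.53) and *Klf2*, a shear-responsive factor, in valve-like LECs (1.14). *Sgms2*, a sphingomyelin synthase, *Plpp1* and *S1pr4* were higher in arterial-like than venous-like BECs (3.74, 0.78 and 1.95) and *Arrb1* lower (-1.97). Against capillary-like BECs, *Sgms2* was higher in arterial-like cells (4.39) and *Gnai2* and *Aldh3a2* lower (-0.31 and -1.67).

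The genes whose log2 CPM ran most like each member over 42 sums of vessel classes per mouse were sought among 9883 genes with a mean of at least 3. The sums share mice, libraries and class rules, so the coefficients describe these sums only. *Plpp3* ran with *Col15a1*, *C1qtnf9* and *Aplnr* (Pearson r 0.912, 0.906 and 0.904). *C1qtnf9* had 24.5 and 5.50 CPM in control LECs and 0.755 to 4.43 CPM in mutant LECs, with every mutant below both controls, as for *Plpp3*. *S1pr1* ran with *Cavin1*, a caveolar coat protein, at 0.818, then *Selenow* and *Arglu1* at 0.734 each. *Cavin1* had 1201 and 876 CPM in control LECs and 649, 542, 626, 660 and 1152 CPM in mutant LECs, with mutants 1 to 4 low and mutant 5 high, as for *S1pr1*. *Spns2* ran with *Rab3il1*, *Degs1* and *Lbp* (0.784, 0.759 and 0.728), and *Sphk1* with *Bmp2k*, *Ppl* and *Ttc9* (0.780, 0.767 and 0.759). *Sphk2* ran with *Dbp*, *Nr1d2* and *Nr1d1* (0.788, 0.644 and 0.632), all of them clock genes, of which *Dbp* shares exon bases with it. The genes nearest to *Sgpl1* were *Mplkip*, *Opa1* and *Lemd3* (0.667, 0.602 and 0.594). For *S1pr2* and *S1pr3*, both near the limit of detection, no gene exceeded 0.6004 and 0.572 (*Sufu* and *Gemin7*).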

How the data were processed

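Single-cell Smart-Seq2 libraries of 9 plates from 7 mice were analysed. The files hold counts of reads per gene and cell, as deposited by the authors, with gene lengths. Per the labels and methods, reads were aligned with TopHat2 to GRCm38 with the chicken PIK3CA added, duplicates were removed with SAMtools, and reads were counted with featureCounts. The annotation version is not given in the sources used here. There are no molecular identifiers and strand was not used. Plates held 99969650 to 151812175 reads. ERCC spike-ins (92 of 46609 rows, 0.422% of reads in kept cells) were left out, and 46005 genes matched GENCODE vM21 symbols.

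Counts were summed per mouse and cell type, over 157 to 367 cells and 38402388 to 194353210 reads a sum. CPM are of plain sums, and fold changes are scaled by TMM. edgeR 4.0.16 in R 4.3.3 (filterByExpr, quasi-likelihood test, Benjamini-Hochberg threshold 0.05) was the main test and DESeq2 1.42.0 an alternative. LECs and BECs of a mouse are from the same animal, and their deviations from group means correlated at 0.124 to 0.450, so mouse was a block in comparisons within mice. The count fits were tested on simulated data for 6 of the 10 comparisons. No doublet caller was run. Intervals of fold changes come from the edgeR fit of sums per mouse and include the spread between mice. Floors cover counting error only. Shares were compared by exact permutation tests. The 8 genes and all lists were chosen with earlier results of these data known. Genes outside the 8 were named where they passed in mutants against controls or ranked among the 3 most alike, and those named for other comparisons were chosen after their values were seen. Plate 903, the third control, was not analysed here. Alternatives covered normalization, filters, plates, cell rules and leaving out each mouse.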

Additional observations from a re-analysis of the deposited data

Results flagged for a closer look

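In groups of 5 mutant mice, 5 of the values had a mouse far from the others by Dixon's test, of 32 groups tested at a critical value of 0.71, where chance gives about 1 in 20. Mutant 5 had the highest *S1pr3* level in LECs, at 2.71 CPM, with 42.5% of the reads in a single cell, and the highest *S1pr1* level in BECs, at 958 CPM. Mutant 1 had the highest levels in BECs of *S1pr3*, at 22.3 CPM with 74.4% of the reads in a single cell, and of *Sphk1*, at 17.9 CPM with 59.0% in a single cell. Mutant 2 had the lowest share of LECs with an *S1pr1* read, at 95.2%.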

How the results depend on the processing

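Of 1210 values of the 8 genes under alternatives, 1169 stayed on their side of the threshold, 22 lost the call and 19 gained it. None of them (0) reversed as a called value, but 105 of the 1169, all uncalled, changed sign. Counts of genes called moved more, and the cause was not tested. In DESeq2 they were 2490 for mutant against control LECs (546 in edgeR), 2238 for BECs (410), 1256 for the difference of effects (42), 4362 for LECs against BECs in controls (2277), 2564 for *Ptx3*-positive LECs (983), 679 for collecting-like (186) and 685 for valve-like LECs (235), and 1641 and 1599 for arterial-like against venous-like (706) and capillary-like BECs (648). Control and mutant mice share replicate numbers, and the deviations of mice with the same number correlated at -0.011 and -0.026 in LECs and 0.047 and 0.086 in BECs. With 2 controls, the deviations of 1 are the reverse of those of the other, so these values cannot decide whether the mice are paired. The replicate block by the shared numbers gave 3 calls in LECs and 0 in BECs, where 2709 genes had an unadjusted p under 0.05. Without the mouse block, the counts were 596 for *Ptx3*, 99 for collecting-like and 135 for valve-like LECs, with 0 of the 8 genes for *Ptx3* and 2 for LECs against BECs in controls. Plates 891 to 901 alone gave 3 calls in LECs and 0 in BECs (1137 unadjusted), and the plate number series as a block 178, with 1 of the 8 genes, and 54, both with mutant 5 as the lone mutant of its run. Without cycling cells the LEC count was 94 and the difference 14, *Ptx3*-negative LECs alone gave 9, and any *Ptx3* read as the rule gave 330. Without cells of both marker sums the difference was 22 and the control count 1480, and a marker limit of 1000 CPM gave 125 for the difference. Of the 8 genes, DESeq2 called 1 for the difference, 4 for LECs against BECs in controls and 2 for collecting-like LECs. In controls, 3 were called in thinned cells and 2 each without cycling cells, without cells of both sums and at a limit of 1000. A score margin of 0.6 called 1 in collecting-like LECs and 1 between arterial-like and venous-like BECs. Leaving out 1 mouse gave 153 to 546 in LECs (over 1.5 times without control 1 or mutants 1 to 4), 159 to 586 in BECs (control 2, mutants 1 to 4), 0 to 21 for the difference (every mouse, 0 without control 2 with 2856 unadjusted), 1158 to 2133 in controls (either control), 467 to 638 for *Ptx3* (every mutant), 94 to 206 for collecting-like LECs (mutants 2 to 5), 151 to 246 for valve-like LECs (mutants 3 and 5) and 422 to 675 for arterial-like against capillary-like BECs (mutants 2 and 3). Of the 8 genes it gave 0 to 1 in BECs (1 without mutant 5), 1 to 2 in controls, 0 to 1 for *Ptx3* and 0 to 1 for collecting-like LECs. Class comparisons without cycling cells were chosen after seeing the data. With 2 controls that differ in genotype and treatment, a p that misses the threshold does not show equal levels.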

Other observations

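The 117 cells that were neither LECs nor BECs, 50 from controls and 67 from mutants, were pooled by genotype and not tested. They had 202 CPM of *S1pr1* in controls and 231 in mutants, 344 and 396 CPM of *Plpp3*, and 16.1 and 46.6 CPM of *Spns2*. *Sphk1* was at 58.3 and 45.3 CPM, *Sphk2* at 146 and 68.8, *Sgpl1* at 91.6 and 145, and *S1pr2* at 40.3 and 16.5.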
